A study of Mus musculus with 12 samples.

Results

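The genes described here encode the proteasome: 48 protein-coding genes whose symbols run from Psma to Psmg followed by a number, out of 20983 protein-coding genes and 27179 gene IDs in the count tables. They were taken by symbol alone, and all 48 had a row and a gene length. They comprise 16 subunits of the 20S core (Psma and Psmb), 3 immunosubunits (Psmb8, Psmb9 and Psmb10), 17 subunits of the 19S regulatory particle (Psmc and most of Psmd), 4 activators (Psme), 7 assembly chaperones (Psmg, Psmd5, Psmd9 and Psmd10) and the inhibitor Psmf1.

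The cells were NIH3T3, an immortalized line of mouse embryonic fibroblasts, without endogenous RelA (RelA-/-) and with a RelA-DsRed fusion, which all groups carried. RelA, or p65, is a subunit of the transcription factor NF-κB, and DsRed is a fluorescent protein. Polyadenylated RNA was sequenced after 2 h in microfluidic devices with IL-1b at 0.2 ng/mL, LPS at 100 ng/mL, PAM at 0.2 ng/mL or media, with 3 samples a group, to compare the stimuli. The sources used here do not give the promoter of the fusion, whether the line was 1 clone or whether the samples came from separate cultures, so the spread between samples may be technical.

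Only the IL-1 group had count tables of its own, since each of the other 9 tables was a byte-identical copy of IL-1 replicate 3. LPS, PAM and media samples were therefore not analysed here. All levels are those of IL-1-treated cells, and no change with IL-1 can be read from them. The libraries held 17254518, 18091073 and 18578859 counts. Rela, which the fusion and the deleted allele share as a name, had 641, 551 and 723 counts in replicates 1 to 3; counts per gene cannot tell the fusion from transcripts of the deleted allele. All 10 listed fibroblast markers reached 1 CPM (counts per 1000000) in every library, with summed levels of 14391 to 15951 CPM. Of 10 leukocyte markers, 4 did (Lyz2, Cd68, Csf1r and Cd74), beside 51.1% of all protein-coding genes. The 10 had summed levels of 18.2 to 27.6 CPM. Lyz2 had 171, 222 and 128 counts in replicates 1 to 3, and Cd74 had 187, 182 and 141. Cd3e had no count, and Ptprc, the common leukocyte antigen, had 3, 0 and 6 counts. In bulk libraries, fewer cells of a type and less RNA per cell cannot be told apart.

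The proteasome degrades ubiquitin-tagged proteins. Its core is a barrel of stacked rings, with outer α rings (Psma genes) that gate entry and inner β rings (Psmb genes) that hold the active sites in Psmb6 (β1), Psmb7 (β2) and Psmb5 (β5). The regulatory particle binds ubiquitin chains, removes them and unfolds the substrate with a ring of ATPases (Psmc genes). In cells exposed to interferon, and constitutively in many leukocytes, Psmb9, Psmb10 and Psmb8 can take the places of Psmb6, Psmb7 and Psmb5 in newly assembled cores, which favours peptides for MHC class I. In the NF-κB pathway the proteasome destroys the inhibitor IκBα and processes the precursors of NF-κB subunits.

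Proteasome transcripts were present almost throughout. Of the 48 genes, 46 (95.8%) reached 1 CPM in every library, against 51.1% of all protein-coding genes, and together they took 1.29%, 1.36% and 1.31% of all counts. Levels between genes are given as CPM per kb of merged exons, because these libraries yield more reads from longer transcripts. On this scale 44 of the 48 genes lay above the median of the 10704 detected protein-coding genes with a length (6.94 CPM per kb) and 32 lay above their 90th percentile (54.9 CPM per kb). The 4 below the median were the immunosubunits Psmb8 and Psmb9 and the tissue-specific Psma8 and Psmb11.

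**Figure D1:**
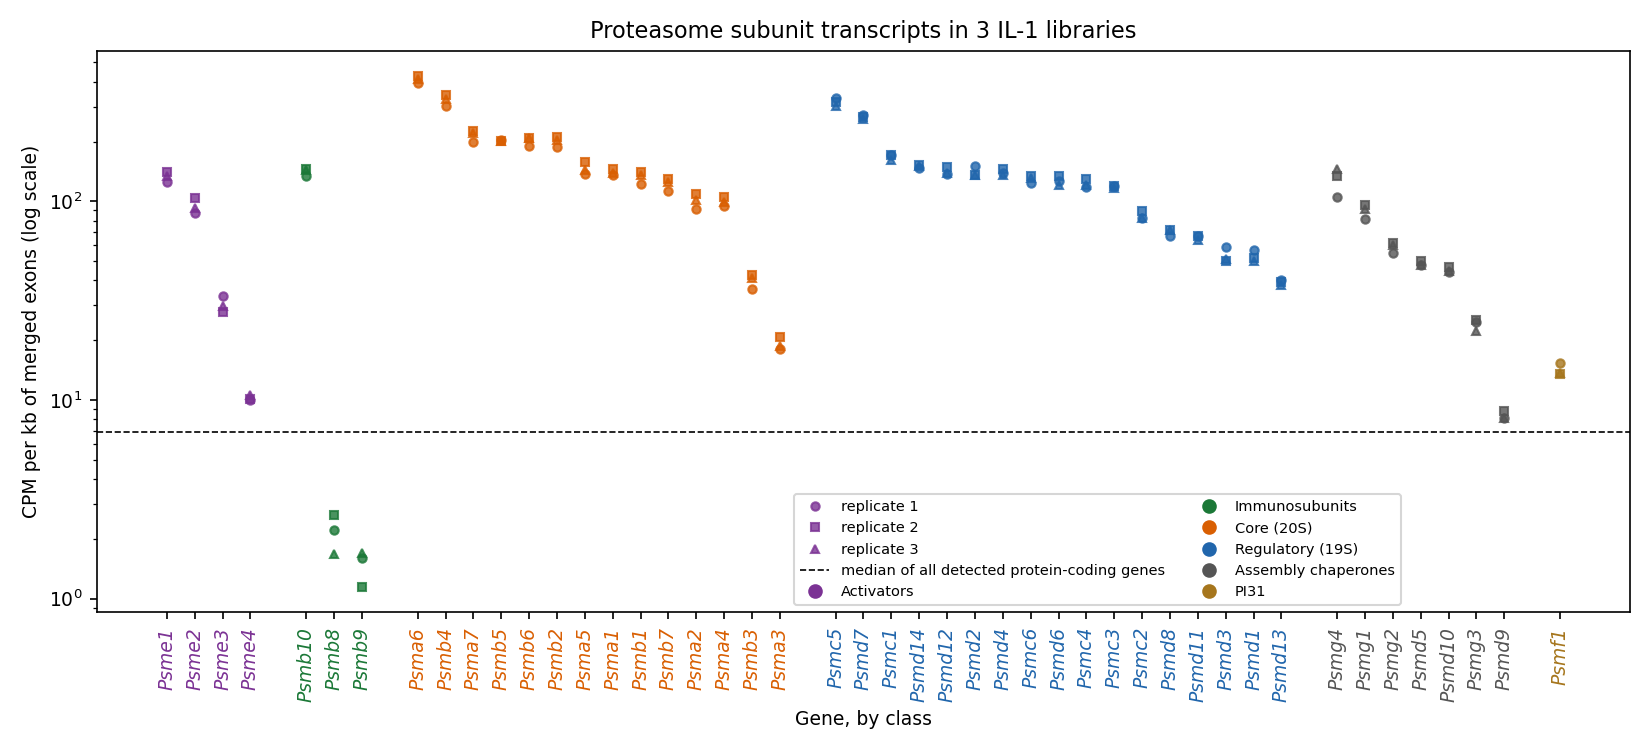
Level of each of the 46 detected proteasome genes (CPM per kb of merged exons, log scale), grouped by class and ordered by mean; circles, squares and triangles are replicates 1, 2 and 3, and the dashed line is the median of all detected protein-coding genes (6.94 CPM per kb). Psmb10 sits at the level of the core subunits, while Psmb8 and Psmb9 are the only detected members below the dashed line; Psma8 and Psmb11 are not drawn.

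The immunosubunits did not form one group. Psmb10 was near the level of its constitutive partner, whereas Psmb8 and Psmb9 were at about 1% of the summed level of their pairs per kb of merged exons. Psmb10 alone made up 97.5% ± 0.24 (SD, n = 3) of the summed level of the 3 immunosubunits per kb. Psmb8 and Psmb9 were far below Psmb10 in each replicate and under all 3 definitions of gene length (merged exons, longest transcript and coding length).

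The 250 bases upstream of the RefSeq transcript start (GRCm38.p6, the assembly behind mm10) are shown for the 3 immunosubunits, for the β5 and β1 subunits that Psmb8 and Psmb9 replace, and for the lid subunit Psmd12, whose window held 4 of the 7 motifs searched. Capitals mark any match, on either strand, to ISRE (a pair of GAAA repeats 2 bases apart, bound by interferon-activated factors), GAS (TTCNNNGAA, bound by STAT dimers), the NF-κB consensus, ARE (TGACNNNGC, bound by NRF1 and NRF2), ETS (CCGGAAG), the GC box (GGGCGG) or the CCAAT box (CCAAT).
Psmb8 (chr17:34197945-34198194, plus strand): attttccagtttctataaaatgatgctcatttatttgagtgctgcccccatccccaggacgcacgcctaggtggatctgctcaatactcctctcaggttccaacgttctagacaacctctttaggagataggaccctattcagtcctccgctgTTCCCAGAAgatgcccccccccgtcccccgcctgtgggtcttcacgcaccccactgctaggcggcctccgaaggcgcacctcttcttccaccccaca
Psmb9 (chr17:34187331-34187580, minus strand): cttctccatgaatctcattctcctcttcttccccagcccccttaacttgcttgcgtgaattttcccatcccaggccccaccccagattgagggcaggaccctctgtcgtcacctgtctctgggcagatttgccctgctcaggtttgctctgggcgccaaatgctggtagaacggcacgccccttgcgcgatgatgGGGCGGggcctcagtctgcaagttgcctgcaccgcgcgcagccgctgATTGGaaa
Psmb10 (chr8:105938393-105938642, minus strand): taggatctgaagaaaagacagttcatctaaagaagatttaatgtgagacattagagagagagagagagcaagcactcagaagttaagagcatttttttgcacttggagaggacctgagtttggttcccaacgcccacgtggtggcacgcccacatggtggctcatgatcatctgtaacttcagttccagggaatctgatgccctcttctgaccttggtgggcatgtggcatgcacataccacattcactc
Psmb5 (chr14:54617996-54618245, minus strand): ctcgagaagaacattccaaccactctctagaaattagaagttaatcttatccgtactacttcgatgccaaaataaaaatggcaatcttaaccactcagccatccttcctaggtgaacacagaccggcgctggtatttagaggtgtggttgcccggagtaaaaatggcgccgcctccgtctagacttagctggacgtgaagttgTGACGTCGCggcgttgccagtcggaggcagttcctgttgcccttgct
Psmb6 (chr11:70525107-70525356, plus strand): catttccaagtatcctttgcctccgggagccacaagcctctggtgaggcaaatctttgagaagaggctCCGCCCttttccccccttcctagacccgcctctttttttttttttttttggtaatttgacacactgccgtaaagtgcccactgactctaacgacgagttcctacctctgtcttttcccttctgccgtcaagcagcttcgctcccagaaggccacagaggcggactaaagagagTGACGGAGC
Psmd12 (chr11:107479278-107479527, plus strand): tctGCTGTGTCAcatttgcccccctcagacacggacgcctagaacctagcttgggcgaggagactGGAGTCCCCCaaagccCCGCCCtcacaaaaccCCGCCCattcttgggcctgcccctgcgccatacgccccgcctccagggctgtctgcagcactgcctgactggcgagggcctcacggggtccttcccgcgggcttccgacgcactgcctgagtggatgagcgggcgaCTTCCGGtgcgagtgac

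In the Psmb8 window the capitals are a GAS match, found on both strands because the pattern TTCNNNGAA is its own reverse complement. In the Psmb9 window they are a GC box and, on the minus strand, a CCAAT box. The Psmb10 window held none of the 7 motifs. Both Psmb5 and Psmb6 held an ARE, and Psmb6 also a GC box. The Psmb6 window belongs to a transcript start inside the annotated gene, so its last 33 bases, with the ARE, lie within the gene span given for Psmb6. No matches overlapped in these windows, and a match is a string of letters, not a shown binding site.

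Of the 48 genes, 40 had an entry in the promoter table, with 43 windows. The ETS motif was in 13 of these 43 windows (30.2%), against 6.91% of all 32851 windows and 14.4% of the 11122 windows of detected protein-coding genes. Most of its 12 genes encode regulatory subunits. These were the ATPases Psmc1, Psmc2 and Psmc6, the base subunits Psmd2 and Psmd4 and the lid subunits Psmd6, Psmd11 and Psmd12. The others were the activators Psme3 and Psme4, the assembly chaperone Psmg1 and, as the only core subunit, the α subunit Psma6. The other motifs stood at 53.5% against 59.6% of detected protein-coding windows for the GC box, 32.6% against 35.8% for CCAAT and 11.6% against 11.8% for ARE. ISRE was in 6.98% against 2.50%, GAS in 4.65% against 5.84% and the NF-κB consensus in 2.33% against 4.52%, which are 3, 2 and 1 windows of members. These shares are descriptions with no test.

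At the β5 position, Psmb8 (chromosome 17, 34198195 to 34201454) had 130, 161 and 106 counts in replicates 1 to 3, or 2.23, 2.63 and 1.69 CPM per kb. Its constitutive counterpart Psmb5 (chromosome 14, 54614120 to 54617995) had 3168, 3279 and 3346 counts, or 204, 202 and 200.3 CPM per kb. Every Psmb8 value lay far below every Psmb5 value. Psmb8 to Psmb5 gave a log2 ratio of -6.56 ± 0.32 (SD, n = 3), and Psmb8 made up 1.07% ± 0.23 of the pair. With coding length in place of merged exons the log2 ratio was -4.71, and with the longest transcript it was -5.73.

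At the β1 position, Psmb9 (chromosome 17, 34182030 to 34187330) had 101, 76 and 115 counts, or 1.60, 1.15 and 1.69 CPM per kb. Psmb6 (chromosome 11, 70525324 to 70527858) had 6166, 7027 and 7211 counts, or 191, 207 and 207 CPM per kb. Again the values did not overlap. Psmb9 to Psmb6 gave a log2 ratio of -7.11 ± 0.34 (SD, n = 3), with Psmb9 at 0.73% ± 0.16 of the pair; the log2 ratio was -6.02 with coding length and -7.72 with the longest transcript.

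At the β2 position, Psmb10 (chromosome 8, 105935728 to 105938392) had 3943, 4476 and 4573 counts, or 134, 145 and 144 CPM per kb. Psmb7 (chromosome 2, 38588046 to 38643952) had 6639, 7990 and 7958 counts, or 112.5, 129 and 125 CPM per kb. Psmb10 was above Psmb7 within each library, at 1.19, 1.12 and 1.15 times its level. The order of this pair depends on the length used, with a log2 ratio of 0.21 ± 0.04 (SD, n = 3) per kb of merged exons, 0.32 with the longest transcript and -0.77 with coding length. Psmb10 thus differed from Psmb8 by 66.9 ± 16.3 times per kb of merged exons and by 34.1 ± 8.32 times with coding length.

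Summed over the 3 positions, the immunosubunits stood at a log2 ratio of -1.86 ± 0.02 (SD, n = 3) to the constitutive catalytic subunits, and nearly all of the numerator was Psmb10. With 3 libraries an exact two-sided sign test of a within-library ratio cannot go below p = 0.25, so no ratio here has a test. Psmb5 has 1 near-identical pseudogene in the annotation and 12.1% of its exon bases lie in another gene; for Psmb7 and Psmb8 the shares in another gene are 11.8% and 14.7%. The sources used here do not say how such reads were counted.

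**Figure D2:**
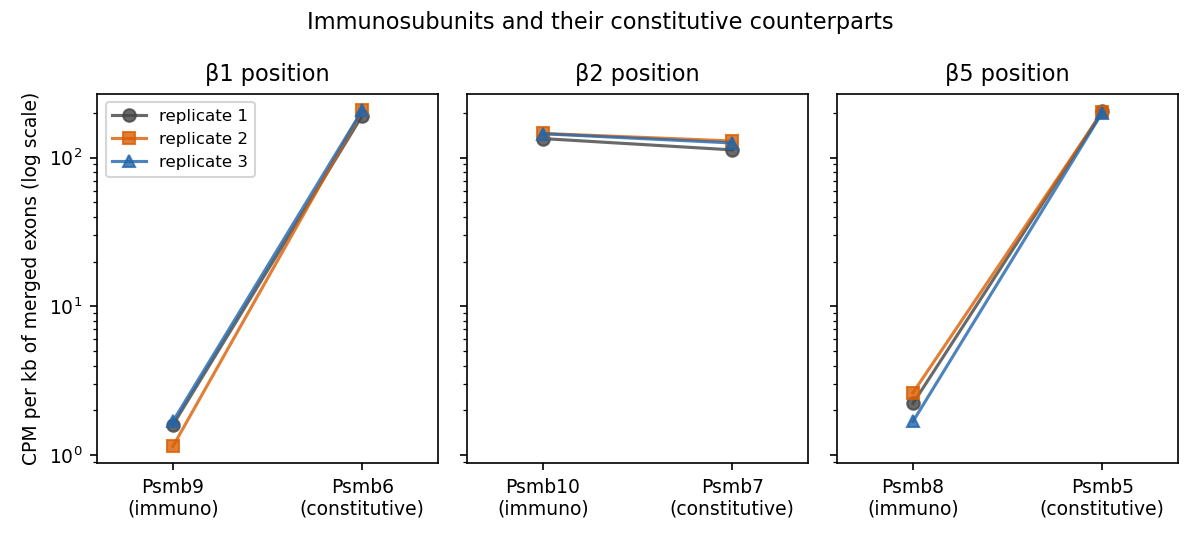
Immunosubunits (left of each panel) and the constitutive subunits of the same position (right), in CPM per kb of merged exons on a log scale; each line joins the values of 1 library. The lines rise steeply at β1 and β5 (Psmb9 to Psmb6 and Psmb8 to Psmb5) and are nearly level at β2, where Psmb10 had 134 to 145 and Psmb7 112.5 to 129 CPM per kb.

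Psmb8 and Psmb9 lie next to Tap1 and Tap2, the subunits of the peptide transporter that feeds MHC class I, within the MHC on chromosome 17. In CPM, Psmb8 had 7.53 (95% exact Poisson interval 6.29 to 8.95) in replicate 1, 8.90 (7.58 to 10.4) in replicate 2 and 5.71 (4.67 to 6.90) in replicate 3. Psmb9 had 5.85 (4.77 to 7.11), 4.20 (3.31 to 5.26) and 6.19 (5.11 to 7.43). The intervals of Psmb8 did not overlap between replicates 2 and 3, while those of Psmb9 all overlapped; the intervals cover counting error only. The labels mention no molecular identifiers, so reads are not independent molecules.

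Tap1 had 30.1, 16.5 and 19.2 CPM and Tap2 had 23.6, 14.7 and 19.6 CPM in replicates 1 to 3. Both were highest in replicate 1 and, like Psmb9, lowest in replicate 2. All 15 listed interferon-stimulated genes were also highest in replicate 1 (14 of 15 with TMM factors, which correct for the composition of libraries), against 46.1% of all detected protein-coding genes (38.0% with TMM factors). Their summed level was 1202, 892 and 839 CPM. No immunosubunit was highest in replicate 1: Psmb8 and Psmb10 were highest in replicate 2 and Psmb9 in replicate 3. However, the Poisson intervals of Psmb8 overlapped between replicates 1 and 2, and those of Psmb9 between replicates 1 and 3. The log2 ratio of replicate 1 to the mean of the other libraries was 0.05 for Psmb8, 0.17 for Psmb9 and -0.11 for Psmb10, against 0.75 for Tap1 and 0.46 for Tap2. In the interferon-stimulated list this ratio ran from 0.02 for Bst2 to 1.94 for Mx1, with Irf1 (0.16) and Gbp2 (0.31) next above Bst2. With TMM factors the values were 0.00 for Psmb8, 0.13 for Psmb9 and -0.15 for Psmb10, against 0.71 for Tap1 and 0.42 for Tap2. These differences between genes have no test. Coding length differs as well, with 828 bases for Psmb8 and 657 for Psmb9, against 2172 for Tap1 and 2106 for Tap2. Over all detected protein-coding genes the median of the log2 ratio was -0.07 at up to 999 coding bases and 0.13 from 2000 bases; the part of length was not tested. Of the exon bases of Psmb9, 5.8% lie in Tap1. B2m, the light chain of MHC class I, had 1298, 1585 and 1488 CPM. The summed leukocyte markers, given for cells that carry immunosubunits, were 24.5, 27.6 and 18.2 CPM in replicates 1 to 3. That is the order of Psmb8 and the reverse of the order of Psmb9, and within the list Cd74 (10.8, 10.1 and 7.59 CPM) was highest in replicate 1. The part of such cells in either level was not tested.

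**Figure D3:**
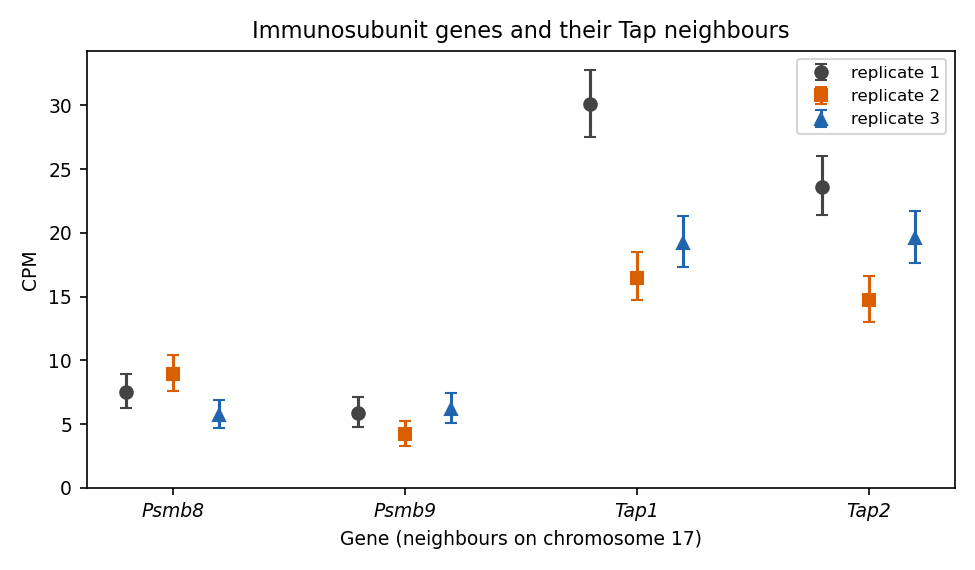
Psmb8, Psmb9 and their chromosome 17 neighbours Tap1 and Tap2 in CPM in each IL-1 library, with 95% exact Poisson intervals that cover counting error only. Tap1 and Tap2 are highest in replicate 1 (30.1 and 23.6 CPM); Psmb8 is highest in replicate 2 and Psmb9 in replicate 3.

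The activators, which open the core from its ends without ATP, differed in level. Psme1 (chromosome 14, 55578494 to 55581527) and Psme2 (chromosome 14, 55587440 to 55591101) encode the α and β chains of PA28, a cap that interferon is known to induce together with the immunosubunits. Psme1 had 124, 140 and 135 CPM per kb and Psme2 had 87.7, 104 and 92.3 CPM per kb in replicates 1 to 3. Both lay within the range of the core subunits, as did the lower Psme3, and far above Psmb8 and Psmb9. The chains assemble into 1 ring, and the ratio of Psme1 to Psme2 was 1.41 ± 0.06 (SD, n = 3) per kb of merged exons. That order turned with the longest transcript (0.853), while coding length gave 1.69.

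Psme3, which forms the nuclear PA28γ ring, had 33.4, 27.8 and 29.8 CPM per kb. Psme4, which encodes the large nuclear activator PA200, had 9.95, 10.1 and 10.5 CPM per kb and was the lowest activator in every library. The median over the 4 activators was 62.5 ± 2.92 CPM per kb, against 143 ± 7.71 CPM per kb for the 14 detected core subunits (SD, n = 3). The log2 ratio of these medians was -1.20 ± 0.02 and negative in each library. Psmf1, which encodes the inhibitor PI31, had 15.4, 13.5 and 13.6 CPM per kb.

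The detected core subunits ranged from 19.2 to 410.4 CPM per kb although each is present in equal number in the barrel. The α subunit Psma6 was highest, with 394.5, 426 and 411 CPM per kb, followed by the β subunit Psmb4 (300.3, 343 and 328) and the α subunit Psma7 (199, 226 and 220 CPM per kb). The values of these 3 did not overlap. Per kb of coding length, however, Psma7 (887) and Psmb1 (845) came first. On that scale the detected core subunits ranged from 97.5 (Psma3) to 887, a smaller fold range. With merged exons the lowest were the β subunit Psmb3 (36.3, 42.5 and 41.0) and the α subunit Psma3 (18.1, 20.6 and 18.7 CPM per kb). Next above them stood the α subunits Psma4 (94.98, 105 and 99.1) and Psma2 (91.3, 108 and 101.5 CPM per kb), whose values overlapped; with coding length Psmb5 (229) and Psma5 (267) were below Psma4 (301.5 CPM per kb). Psma3 and Psmb3 also have the most near-identical pseudogenes of all 48 genes, 3 each at 95% identity or more over at least 200 bases, and were the lowest detected core subunits under coding length too. None of the 14 pseudogenes found for 8 members had a row under its annotation name in the count tables, where some gene IDs had no symbol. Reads that the pseudogenes share with these genes make the values of those 8 members uncertain. Levels over the 8 ran from 19.2 CPM per kb (Psma3, 3 pseudogenes) to 202 (Psmb5, 1 pseudogene), with 168 for Psmc1 (2 pseudogenes). The part of pseudogenes in these levels was not tested.

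The remaining core subunits had means between 122 and 202 CPM per kb, apart from the 2 tissue-specific ones. By position, the median over the 7 α subunits was 140.2 ± 5.25 CPM per kb and over the 4 non-catalytic β subunits 167 ± 10.8 CPM per kb, with 198 ± 5.85 CPM per kb for the 3 catalytic ones (SD, n = 3). The ranges of single members in these groups overlapped widely.

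Psma8, which replaces Psma7 in the testis, had 0, 3 and 0 counts. Psmb11, which replaces Psmb5 in cortical epithelium of the thymus, had 3, 3 and 0 counts. Where a library had no count, the exact 95% Poisson interval reached up to 0.214 CPM (Psma8, replicate 1) or 0.199 CPM (both genes, replicate 3). The libraries with 3 counts had exact 95% Poisson intervals that reach up to 0.508 CPM, below the 1 CPM used for detection.

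The regulatory particle was close to the core in level. The core median of 143 CPM per kb stood against 126 ± 6.92 CPM per kb over the 17 regulatory subunits, all detected. The log2 ratio of core to regulatory median was 0.18 ± 0.04 (SD, n = 3), above 0 in each library. With coding length this log2 ratio was 0.89 and with the longest transcript 0.42, so its size rests on the length used. Over the 31 constitutive subunits of core and regulatory particle, levels spread by an SD of 0.97 in log2 CPM per kb in replicates 1, 2 and 3 alike (0.96, 0.97 and 0.98).

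Among the regulatory subunits, the ATPase Psmc5 was highest, with 330, 317 and 300.2 CPM per kb. It was followed by the lid subunit Psmd7 (270.4, 265.5 and 260), which pairs with the deubiquitinase Psmd14, and by the ATPase Psmc1 (170.2, 172 and 161 CPM per kb). Their values did not overlap, but with coding length Psmd7 (623) was above Psmc5 (361 CPM per kb). Psmd14 itself, which cuts ubiquitin chains from the substrate, had 147, 152 and 151 CPM per kb, and the ubiquitin receptor Psmd4 had 139, 145 and 135 CPM per kb.

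The lowest regulatory subunits were the lid subunit Psmd3 (59.1, 50.1 and 51.1), the large base subunit Psmd1 (57.2, 51.6 and 49.9) and the lid subunit Psmd13 (40.1, 39.3 and 37.9 CPM per kb). Psmd3 and Psmd1 overlapped, while Psmd13 was below both in every library. Of the exon bases of Psmd13, 10.1% lie in another gene. Apart from these and the 3 highest, the regulatory subunits had means between 66.0 CPM per kb (Psmd11) and the level of Psmd14. Median levels were 126 ± 5.18 CPM per kb over the 6 ATPases, 137 ± 2.13 over the 3 other base subunits and 98.9 ± 3.67 over the 8 lid subunits.

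The assembly chaperones were lower, with a median of 48.5 ± 1.28 CPM per kb (SD, n = 3) over 7 genes. Psmg1 and Psmg2, which form a dimer that helps build the α ring, had 81.9, 95.7 and 91.0 and 55.1, 62.0 and 60.1 CPM per kb. Psmg4 and Psmg3 form a second dimer, with Psmg4 at 106, 134 and 146 and Psmg3 at 24.6, 25.1 and 22.4 CPM per kb. Psmg1 was above Psmg2, and Psmg4 above Psmg3, in every library, but these gaps rest on the length used. The ratio was 1.52 for Psmg1 to Psmg2 and 5.35 for Psmg4 to Psmg3 with merged exons, against 1.07 and 1.02 with coding length.

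Psmg4 spread most of the members past 10 CPM, with a coefficient of variation of 16.1% and its lowest value in replicate 1. It is also among the shortest members, with 369 coding bases. The chaperones of the ATPase ring were Psmd5 (47.6, 49.9 and 47.9), Psmd10, also called gankyrin (44.1, 46.9 and 44.4), and Psmd9 (8.14, 8.82 and 8.09 CPM per kb). Psmd9 was the lowest chaperone in every library, and 25.5% of its exon bases lie in another gene.

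Of 20 listed genes of other proteasome components and regulators, 19 had a row under that symbol and all 19 reached 1 CPM in every library. Sem1, the smallest subunit of the lid, was at 99.5 ± 14.2 CPM per kb and the core maturation factor Pomp at 52.5 ± 4.55 CPM per kb. The ubiquitin receptor Adrm1 was at 6.84 ± 0.18 CPM per kb, below all 17 regulatory subunits named Psmc or Psmd. The proteasome-bound deubiquitinases Usp14 and Uchl5 were at 54.2 ± 1.21 and 28.7 ± 1.06 CPM per kb. Of the 19 genes, 8 (42.1%), 4 (21.1%) and 7 (36.8%) were highest in replicates 1, 2 and 3, against 46.1%, 26.7% and 27.3% of all detected protein-coding genes. With TMM factors the counts were 6, 7 and 6. Nfe2l2 alone exceeded the median of the regulatory subunits.

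NRF1, the transcription factor that restores proteasome genes when proteasome activity falls, is encoded by Nfe2l1, at 39.1 ± 1.25 CPM per kb. Of the enzymes that process it, the protease gene Ddi2 was at 0.45 ± 0.05 and the glycanase gene Ngly1 at 1.93 ± 0.19 CPM per kb. Its relative Nfe2l2 was at 150.5 ± 7.36 CPM per kb (SD, n = 3). Among shuttle factors that bring ubiquitinated proteins, Ubqln1 was at 33.0 ± 1.28, Ubqln4 at 21.8 ± 3.97, Ubqln2 at 15.6 ± 1.69 and Rad23b at 9.43 ± 1.20 CPM per kb.

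The other listed genes given by value spanned a narrower range, from 7.93 to 59.2 CPM per kb. Txnl1, a thioredoxin-like protein bound to the regulatory particle, was at 59.2 ± 2.14 CPM per kb and Akirin2, which brings proteasomes into the nucleus, at 22.2 ± 0.27. Ube3c, a ubiquitin ligase on the proteasome, was at 11.8 ± 0.37, Ecpas, a scaffold, at 8.52 ± 1.10 and Zfand5, an activator of the proteasome, at 7.93 ± 0.53 CPM per kb.

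Across the 3 libraries the detected members varied with a median coefficient of variation of 5.08%, against 8.33% over all detected protein-coding genes. The 2 medians are not matched for level. Counting error is smaller in genes with more counts, and 32 members lay above the 90th percentile of level. The part of level in this difference was not tested. Most members peaked in replicate 2, with 32 of 46 (69.6%), against 26.7% of all detected protein-coding genes. Another 10 (21.7%) peaked in replicate 1, against 46.1% of all, and 4 (8.70%) in replicate 3, against 27.3% of all. With TMM factors these counts became 37, 6 and 3, against 33.9%, 38.0% and 28.1% of all for replicates 2, 1 and 3.

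The classes differed in this. Of the 14 detected core subunits 13 were highest in replicate 2, as were 6 of 7 assembly chaperones, but 9 of 17 regulatory subunits were, with 7 highest in replicate 1. With TMM factors the counts highest in replicate 2 were 14 of 14 core, 6 of 7 assembly and 13 of 17 regulatory genes. The difference between classes has no test. Psmd1, Psmd2 and Psmd3, with 2859, 2724 and 1590 coding bases, were higher in replicate 1 than in both other libraries, at 416 against 375 and 363, 607 against 550.2 and 549, and 293 against 249 and 254 CPM. Psma2, with 702 coding bases, was lower there, at 335 against 398 and 373 CPM. Other members went the other way. Psme4, the longest with 5529 coding bases, was lowest in replicate 1, at 83.4 against 84.85 and 88.4 CPM. Psme3, with 762 coding bases, was highest in replicate 1, at 98.35 against 82.1 and 88.0 CPM. So was Psmf1, with 813 coding bases, at 99.4 against 87.1 and 87.8 CPM.

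Coding length moved with this pattern in all genes. The log2 ratio of replicate 1 to the mean of replicates 2 and 3 had a median of -0.12 over the 29 detected members of at most 999 coding bases, against -0.07 over all 3345 such genes. For 1000 to 1999 bases it was -0.01 over 14 members, against 0.06 over 4091 genes, and for 2000 bases or more 0.14 over 3 members, against 0.13 over 3253 genes. The core subunits had a median of 741 coding bases and the regulatory subunits 1254. Among genes of at most 999 bases, 23 of 29 members were highest in replicate 2, against 42.1% of all such genes. The part of length in the difference between classes was not tested.

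**Figure D4:**
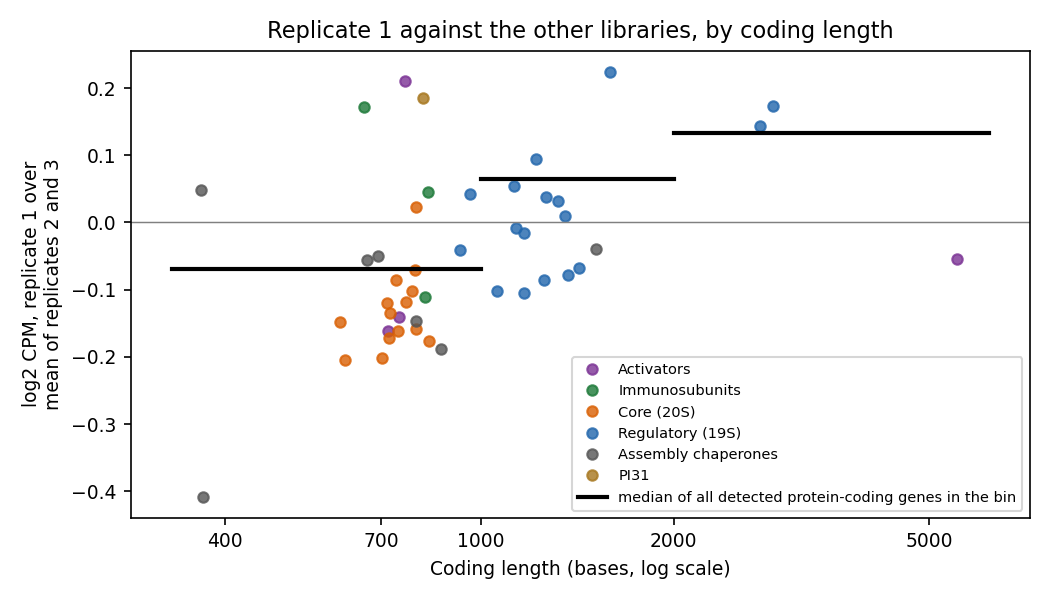
Log2 ratio of replicate 1 to the mean of replicates 2 and 3 (CPM) for each detected proteasome gene, against its coding length in bases (log scale); colours are classes and black bars are medians of all detected protein-coding genes in 3 length bins (-0.07, 0.06 and 0.13). Core subunits lie in the shortest bin and, but for Psmb5, below 0, and the regulatory subunits lie on both sides of 0.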

How the data were processed

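The authors deposited raw read counts per Entrez gene ID, which is the unit of every table. The tools named in the submitters' processing notes are CASAVA, STAR and featureCounts, with mm10 as build; the sources used here do not give versions, annotation, strand or multi-mapping settings. Per the labels' protocols, detergent lysates were reverse-transcribed directly, pre-amplified and made into libraries by tagmentation, so counts are reads that scale with transcript length. All 12 tables were compared byte by byte; 9 equalled IL-1 replicate 3 and were left out. Symbols and positions came from RefSeq GRCm38.p6 (25275 of 27179 IDs matched), lengths from GENCODE M21 by Entrez ID.

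CPM were scaled by library totals. Genes with at least 1 CPM in all 3 libraries were called detected. Values are means ± SD over the 3 libraries; with 1 group, no fit between groups was made. Alternatives were TMM and relative log expression scaling, in edgeR 4.0.16 under R 4.3.3, other gene lengths, other minimum CPM and leaving out a library; the calculation of ratios between libraries was checked on simulated counts. Pseudogenes were found with BLAST 2.17.0. Python 3.11.15, numpy 2.4.6, pandas 2.3.3 and scipy 1.17.1 were used. The members and lists were chosen with earlier results of these data known; motifs and pseudogene settings were chosen after seeing the files. Values per library are given for Psmb5 to Psmb10, all activators, the 3 highest and 3 lowest genes of a class and genes under 1 CPM; others named were chosen after their values were seen. From the list of other proteasome genes, 1 gene is not reported here by value but stays in the counts of that list.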

Additional observations from a re-analysis of the deposited data

How the results depend on the processing

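No paired analysis was possible because 9 of the tables were copies and 1 group was left. Of 99 values under other settings, 73 stayed within 1 SD over libraries (counts, within 1.5 times), 25 moved further and 1 changed sign. The 39 values that leave out 1 library all stayed within, but leaving out 1 of 3 cannot move a mean by 1 SD. TMM and relative log expression factors cancel in ratios within a library and in the SD among subunits, so those values could not move either. The same holds without the filter on low counts for the activator, assembly and regulatory medians, since all genes of these classes were detected. The count of values that stayed within is therefore in large part fixed in advance. The gene length used moved most values. With the longest transcript, median levels were 90.8 (activator), 244 (core), 182 (regulatory) and 78.2 (assembly) CPM per kb, and with coding length 175, 509, 274.0 and 139. The log2 ratio of core to regulatory medians was then 0.42 and 0.89, and that of activator to core -1.43 and -1.54. For the longest transcript and coding length, the log2 ratio of immuno to constitutive catalytic subunits was -1.97 and -2.02, that of Psmb8 to Psmb5 -5.73 and -4.71, and that of Psmb9 to Psmb6 -7.72 and -6.02. Psmb10 to Psmb7 was 0.32 and -0.77, the only change of sign among the 99; Psme1 to Psme2, added after seeing the data, also turned with the longest transcript (0.853, against 1.41). The SD among the standard subunits was 0.95 and 0.84. With Psma8 and Psmb11 included, core to regulatory was 0.11 and activator to core -1.13, by construction. TMM and relative log expression factors each left 6 members highest in replicate 1 in place of 10. A minimum of 0.5 or 2 CPM kept the count of detected members. Without 1 library, the log2 ratio of Psmb8 to Psmb5 ranged from -6.71 to -6.39, of Psmb9 to Psmb6 from -7.22 to -6.92 and of Psmb10 to Psmb7 from 0.19 to 0.23. Depth limits Psmb8 and Psmb9, which rest on 76 to 161 counts a library.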
